A study of Homo sapiens with 12 samples.

Results

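The basal transcriptome of HuH-7, a human hepatocellular carcinoma cell line labelled as carrying mutant p53 Y220C, was described from the 4 arrays of cells that received only the solvent DMSO for 24 h. They were chosen by their titles and make up 4 of the 12 arrays of the series, whose other arrays hold cells given the p53-activating compound SLMP53-2 at 28 µM or at a higher dose that the labels give as 42 µM in some fields and 48 µM in others. Cells grew in RPMI medium, and each array holds Cy3-labelled RNA of 1 biological replicate on a 1-colour Agilent whole human genome design. No array of normal liver, of another line or of cells without DMSO was analysed here, so the levels below are those within HuH-7 under DMSO and no change is tested. HuH-7 is a single line, and each of the 4 DMSO arrays lay on a slide of its own, so that slide and replicate cannot be told apart.

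Hepatocytes secrete most proteins of the blood plasma, among them albumin, apolipoproteins and clotting factors, and they carry the enzymes of drug metabolism, the urea cycle and bile acid synthesis. Their identity is held by a network of transcription factors that includes the HNF1, HNF4, FOXA and C/EBP families. The fetal liver makes alpha-fetoprotein, glypican-3 and insulin-like growth factor 2, which fall to low levels after birth and are often switched on again in liver cancer, hence the name oncofetal genes. A cultured cancer line also divides, and genes of DNA replication and mitosis mark that state.

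The labelled cell type was checked with ALB, AFP, APOA1 and GPC3, each of which has 1 probe of 60 bases on the array. Their sequences are shown because the liver identity of the samples is read from them. Positions are those of hg19 in the scanner files. The ALB probe lies at chr4:74285342-74286015 on the + strand, the AFP probe at chr4:74315180-74315807 on the + strand and the GPC3 probe at chrX:132730579-132795768 on the - strand, and since these spans are longer than 60 bases, each of the 3 probes joins exons across an intron. The APOA1 probe lies at chr11:116707728-116707787 on the - strand, in 1 exon.
ALB: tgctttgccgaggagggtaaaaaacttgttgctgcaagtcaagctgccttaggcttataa
AFP: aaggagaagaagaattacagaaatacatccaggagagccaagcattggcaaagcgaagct
APOA1: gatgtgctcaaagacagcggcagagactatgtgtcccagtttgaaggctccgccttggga
GPC3: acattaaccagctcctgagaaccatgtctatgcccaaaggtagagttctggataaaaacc
ALB and AFP are neighbouring members of the albumin gene family. Their probes shared no run longer than 5 bases, and at most 20 bases matched at any offset without gaps.

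The 250 bases before the transcription start of ALB (chr4:73404037-73404286) and AFP (chr4:73435971-73436220) are shown as RefSeq gives them on the + strand of GRCh38.p14, because both genes are classic examples of liver promoters. Capitals mark the half-site GTTAAT of HNF1, a factor that binds liver promoters, searched on both strands over the 250 bases. They also mark TATAAA, the core of the TATA box, searched on the coding strand from 45 to 16 bases before the start.
ALB: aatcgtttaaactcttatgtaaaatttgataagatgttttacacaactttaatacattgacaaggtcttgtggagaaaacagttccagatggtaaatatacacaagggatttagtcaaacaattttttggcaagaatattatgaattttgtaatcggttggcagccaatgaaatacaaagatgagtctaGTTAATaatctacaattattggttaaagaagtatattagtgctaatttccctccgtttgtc
AFP: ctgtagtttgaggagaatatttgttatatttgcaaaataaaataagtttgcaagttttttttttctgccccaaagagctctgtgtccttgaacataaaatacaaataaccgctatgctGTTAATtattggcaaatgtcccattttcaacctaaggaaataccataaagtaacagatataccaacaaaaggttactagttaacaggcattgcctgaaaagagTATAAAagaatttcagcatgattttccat
The half-site stood 61 to 56 bases before the start of ALB and 132 to 127 bases before that of AFP, and TATAAA stood 29 to 24 bases before the start of AFP. GTTAAT was present in 6.22% of all 27305 promoters in the table and in 4.39% of those of measured genes. Its share was 3.69% among genes detected on all 4 arrays and 7.01% among genes on no array. It was present in 13 of 52 promoters (25%) of the secreted liver proteins described next and in 6 of 40 (15%) of the mature hepatocyte genes. It was also in 2 of 13 (15.4%) of the oncofetal genes and in 1 of 38 (2.63%) of the proliferation genes. TATAAA was in 2.63% of all promoters, in 8 of 52 (15.4%) of the secreted liver proteins and in 10 of 40 (25%) of the mature hepatocyte genes, but also in 3 of 12 (25%) of the housekeeping genes, in 2 of 13 (15.4%) of the oncofetal genes and in 6.03% of genes on no array. Among the mature hepatocyte genes, GTTAAT was found in 3 of 24 promoters of genes detected on all 4 arrays and in 3 of 16 of the others. These matches are of letters and say nothing of binding.

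A level below is the authors' normalized log2 value, given as the mean ± SD of the 4 arrays or, where values are listed, for replicates 1, 2, 3 and 4 in that order. The brightest probe stands for a gene. A gene was called detected when a probe was well above background by the scanner software's flag on all 4 arrays, and not detected when no probe of it was on any. Of 19399 genes, 14812 (76.4%) were detected, 2533 (13.1%) were on no array and 2054 lay between. The arrays differed in this, and genes with a detected probe numbered 15644, 15253, 16396 and 16185 on replicates 1, 2, 3 and 4. For 7267 genes (37.5%) the brightest probe was above the 75th percentile of all 41000 gene probes, 8.88 log2, called the bright tier below. That step was chosen after the values were known. The negative control probe read 5.62 to 6.01 on the 4 arrays, and probes on no array had a median of 6.00. Percentiles are ranks of probe brightness among gene probes and not of transcript number, since probes report their targets with unequal strength. In the 8174 genes with several probes, the brightest and dimmest differed by a median of 1.37 log2, and in 21.0% by over 3. A gene with more probes has more chances to be called detected or bright, and the lists below differed in this. Several probes were held by 18 of 25 liver transcription factors and 21 of 31 growth factor and receptor genes, against 8174 of 19399 genes. They were held by 18 of 56 mature hepatocyte genes, 10 of 50 proliferation genes and 4 of 27 carrier proteins. Over all gene probes, pairs of the 4 arrays correlated at r = 0.984 to 0.992, a correlation across probes, which are not independent replicates.

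All 4 markers were detected on all 4 arrays. Albumin, the main plasma carrier protein, read 15.94, 16.39, 16.17 and 16.05, a mean of 16.14 ± 0.19 at percentile 99.9. Its fetal counterpart AFP read 12.74, 12.79, 13.06 and 13.82, a mean of 13.10 ± 0.50 at percentile 97.1. The AFP arrays spread more than those of 90% of detected genes, whose SD was at most 0.346, and replicate 4 was the highest. APOA1, the main protein of high-density lipoprotein, read 11.75, 11.39, 11.55 and 11.83, a mean of 11.63 ± 0.20 at percentile 93.3. GPC3, a cell surface proteoglycan used as a marker of hepatocellular carcinoma, read 11.87, 12.24, 12.86 and 12.66, a mean of 12.41 ± 0.44 at percentile 95.6. Every array of the 4 genes stood more than 5 log2 above the negative control, so that the markers of the labelled cell type were present.

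Carrier proteins and apolipoproteins were the most completely detected liver group. All 27 measured members were detected, against 76.4% of all genes, 22 lay in the bright tier, against 37.5%, and their median percentile was 94.6, against 63.9 over all genes. The highest were ALB, the iron carrier transferrin (TF, 15.96 ± 0.14), APOA2 of high-density lipoprotein (15.92 ± 0.10), the protease inhibitor precursor AMBP (15.53 ± 0.06) and the mineral-binding fetuin AHSG (15.32 ± 0.15). With the brightest probes their 4 arrays differed little. TF read 16.12, 15.89, 16.02 and 15.80 with its bright probe, the other 3 probes of TF having means of 9.28, 6.86 and 6.82. The first of these 3 read 8.47, 9.88, 8.51 and 10.26, an SD of 0.93. APOA2 read 15.88, 16.07, 15.90 and 15.85. Apolipoprotein E reached 14.14 ± 0.18, the retinol carrier RBP4 14.28 ± 0.15 and the thyroid hormone carrier TTR 13.93 ± 0.24. The least bright were APOA5 (6.81 ± 0.11) and SERPINA7, the thyroxine-binding globulin (6.99 ± 0.18), both detected on all 4 arrays. APOB, the structural protein of low-density lipoprotein, had the largest SD of the group among brightest probes. It read 8.21, 9.62, 8.60 and 9.52, with replicates 2 and 4 about 1 log2 above replicates 1 and 3.

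Coagulation, complement and acute phase proteins were detected in 34 of 38 cases (89.5%, against 76.4% of all genes) and lay in the bright tier in 18 (47.4%, against 37.5%). Their median percentile was 74.6, against 63.9 over all genes. The 5 highest included the acute phase proteins ORM1 (14.41 ± 0.14) and ORM2 (13.40 ± 0.16), near-identical genes whose transcripts the probes may not separate. The others were fibrinogen gamma (FGG, 13.67 ± 0.21), the iron hormone hepcidin (HAMP, 13.41 ± 0.45) and prothrombin (F2, 13.03 ± 0.21). Hepcidin read 12.80, 13.38, 13.85 and 13.60, lowest on replicate 1. The clotting factor F9 was the only member on no array, at 6.18, 6.02, 5.98 and 6.09, close to the range of the negative control. F13B (6.42 ± 0.09), C8B (6.28 ± 0.10) and C9 (6.43 ± 0.19), a clotting factor subunit and parts of the membrane attack complex, were detected on some arrays only. Plasminogen (PLG) and complement factor I (CFI) each had a probe on all 4 arrays and another on none.

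**Figure D1:**
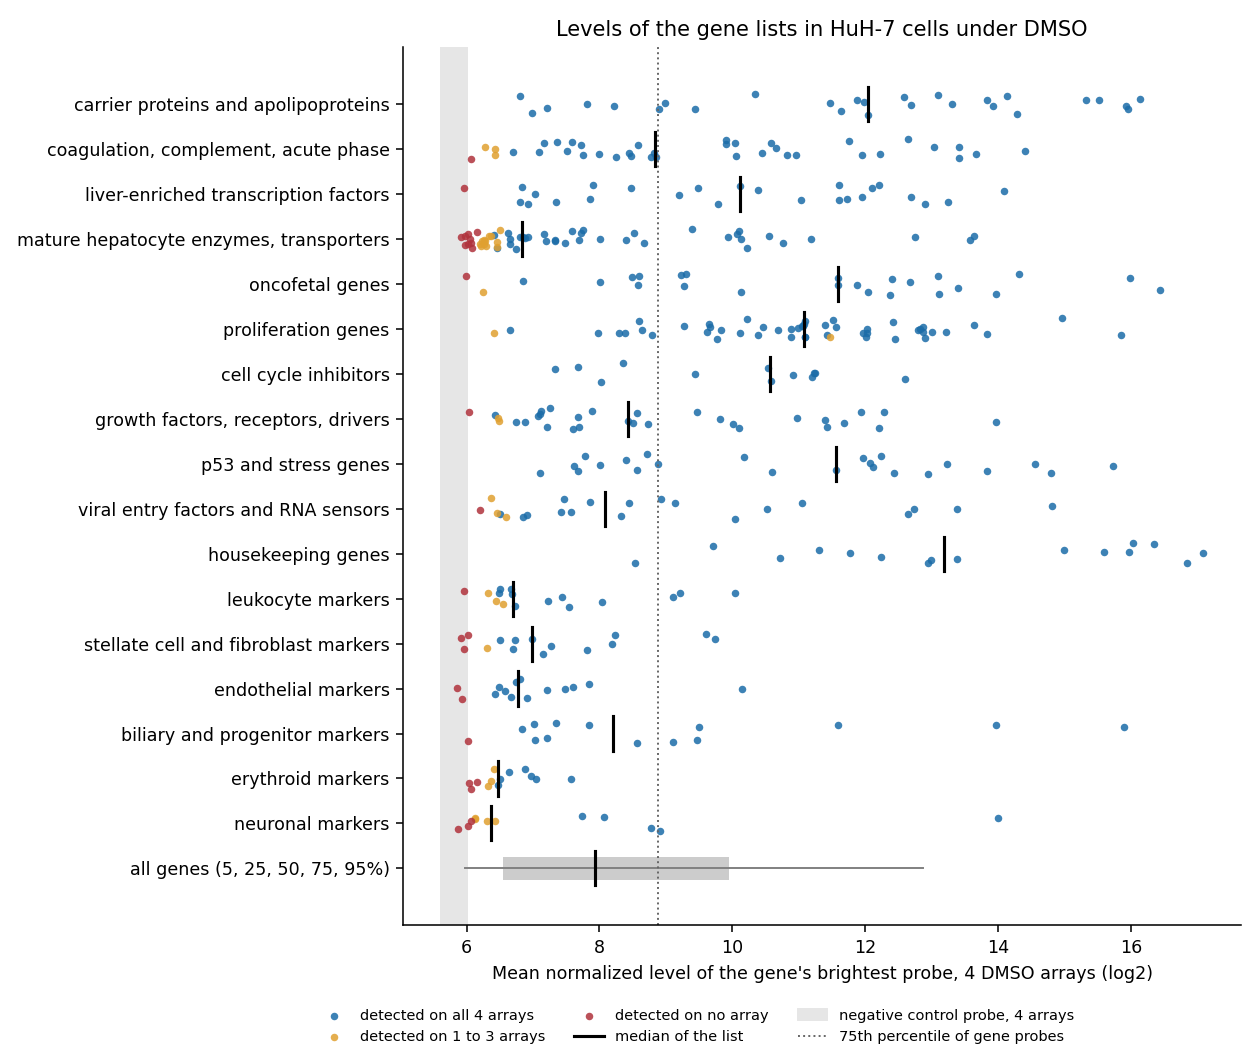
Mean normalized level (log2, x axis) of the brightest probe of every gene in 17 lists (rows), coloured by the number of DMSO arrays on which the gene was detected, with the median of each list as a black bar and the spread of all genes in the bottom row. The housekeeping list has the highest median, 13.19. The carrier, oncofetal, p53 and stress, and proliferation lists have medians of 12.05, 11.60, 11.56 and 11.08. The mature hepatocyte list has a median of 6.83, and most of the members found on no array lie next to the grey band of the negative control.

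The transcription factors of the liver were nearly all detected, 24 of 25 (96%, against 76.4% of all genes), with 16 in the bright tier (64%, against 37.5%) and a median percentile of 85.3. The highest was CEBPA, a C/EBP factor that restrains hepatocyte division, at 13.83, 14.00, 14.27 and 14.24. RXRA, the shared partner of nuclear receptors, followed at 13.25 ± 0.05. The pioneer factors FOXA3 (12.89 ± 0.18), FOXA2 (12.70 ± 0.18) and FOXA1 (11.95 ± 0.06) were all at or above percentile 94.3. The fetal liver factors ONECUT1 and ONECUT2 stood at 11.03 ± 0.17 and 11.61 ± 0.29, and NR2F2 at 12.21 ± 0.25. The bile acid responsive repressor NR0B2 reached 10.11 ± 0.21 and its activator NR1H4 8.48 ± 0.14.

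HNF4A, often called the master regulator of the hepatocyte, was measured by 3 probes that were all dim. The brightest read 6.82, 6.85, 6.87 and 6.80 and was detected on all 4 arrays, and the others were detected on 3 and 2. The xenobiotic receptors differed in detection. NR1I2, which switches on CYP3A4, was on no array, at 6.13, 5.74, 6.05 and 5.96, and NR1I3 was detected at 6.81 ± 0.17. For HNF4G, NR5A2 and PPARA, one probe was detected on all 4 arrays and another on none.

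Mature hepatocyte enzymes and transporters were the least detected liver group. Of 56 members, 35 were detected (62.5%, against 76.4% of all genes), 12 lay between and 9 were on no array (16.1%, against 13.1%). Members with a detected probe numbered 38, 37, 45 and 45 on replicates 1, 2, 3 and 4. Only 12 were in the bright tier (21.4%, against 37.5%), and the median percentile was 44.5, below the 63.9 of all genes. The 9 genes on no array were the drug-metabolizing enzymes CYP2A6, CYP2C8 and CYP3A4, the bile acid enzyme CYP8B1, the alcohol dehydrogenases ADH1B and ADH4, the anion uptake transporter SLCO1B1, the bile salt export pump ABCB11 and the vitamin E transfer protein TTPA. Their means ran from 5.92 for ADH1B to 6.16 for ABCB11. Each gives only an upper bound near the background, not a level of 0. With the laxer flag for a positive and significant signal, ADH1B alone of the 9 was still on no array, ABCB11 was on all 4 and 48 of the 56 members counted as detected.

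The brightest members of the same list showed that it was not dim throughout. The asialoglycoprotein receptor subunit ASGR2 read 13.69, 13.92, 13.31 and 13.62, and homogentisate dioxygenase (HGD), of tyrosine breakdown, read 13.74, 13.52, 13.54 and 13.49. The retinaldehyde dehydrogenase ALDH1A1 reached 12.75 ± 0.39, with replicate 1 at 12.18 below the others, the lowest of which was 12.89. The other receptor subunit, ASGR1, stood at 10.76 ± 0.28.

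The CYP3A genes, which lie side by side on chromosome 7, differed in detection. The single CYP3A4 probe, of the main adult drug-metabolizing form, read 6.02, 6.00, 5.92 and 6.25 and was on no array. The CYP3A7 probe, of the fetal form, read 8.01, 8.20, 7.68 and 8.14. CYP3A5, a form that varies between people, had 3 probes with means of 10.10, 9.09 and 7.02, all on all 4 arrays. The urea cycle was split as well, in enzymes singled out after their values were seen. The first steps CPS1 (6.21 ± 0.14) and OTC (6.29 ± 0.12) were detected on some arrays only, while ASS1 (7.17 ± 0.12), ASL (10.14 ± 0.11) and ARG1 (10.55 ± 0.44) were detected on all 4. Of the enzymes of glucose release, G6PC1 (6.28 ± 0.21) lay between and PCK1 (6.65 ± 0.18) had one probe on all 4 arrays and another on none. Glutamine synthetase (GLUL) had the largest SD of the list, at 9.26, 10.30, 10.06 and 10.64, lowest on replicate 1.

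**Figure D2:**
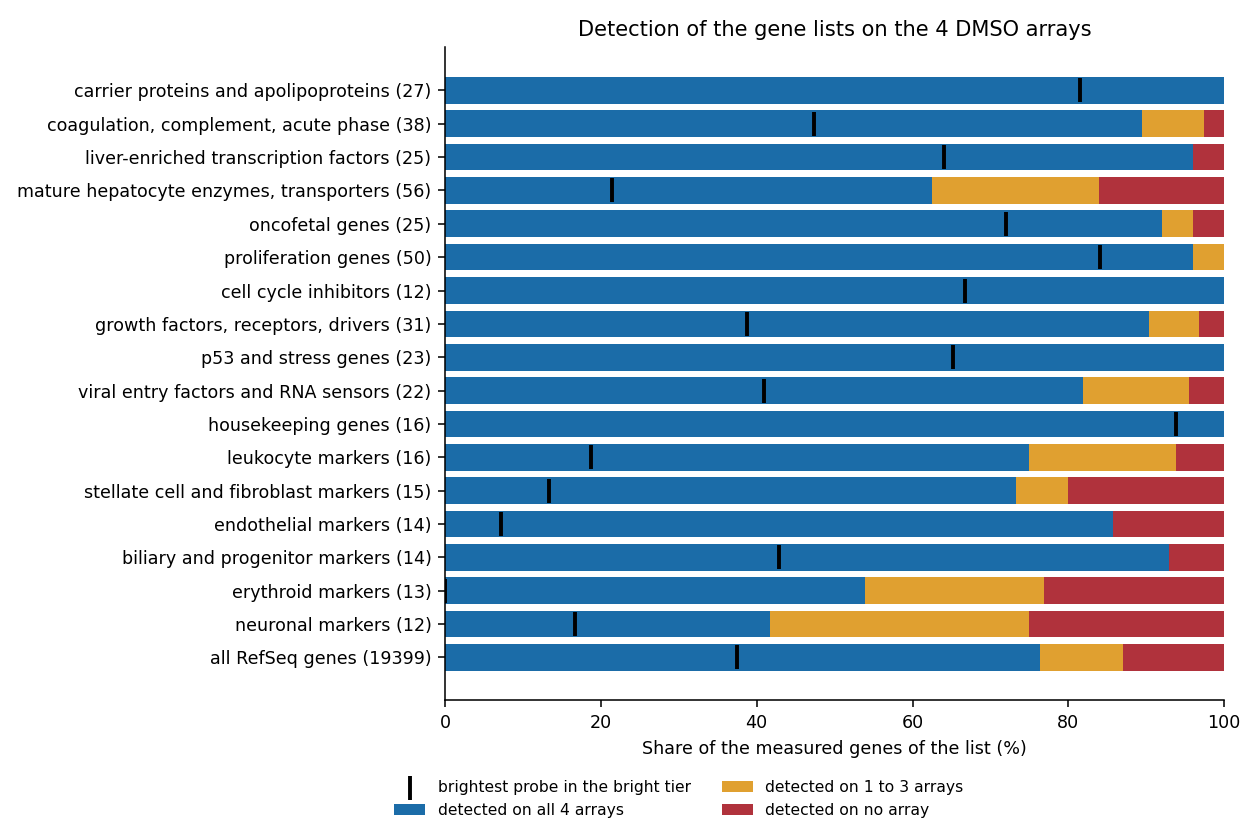
Share of the measured genes of each list (x axis, percent; number of genes in parentheses) detected on all 4, on 1 to 3 or on no DMSO array, with a black tick for the share whose brightest probe lies in the bright tier. Carrier proteins are filled to 100% while mature hepatocyte genes reach 62.5%, below the 76.4% of all genes in the bottom row.

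Oncofetal genes were detected in 23 of 25 cases (92%, against 76.4% of all genes), with 18 in the bright tier (72%, against 37.5%) and a median percentile of 93.2. The highest was SPINK1, a secreted trypsin inhibitor raised in many liver cancers, at 16.28, 16.64, 16.38 and 16.46, percentile 99.9. The fetal growth factor IGF2 read 15.84, 15.90, 16.16 and 16.06 with its bright probe. The heparin-binding growth factor midkine (MDK) reached 14.31 ± 0.14, the surface protein CD24 13.96 ± 0.18 and the imprinted gene PEG10 13.11 ± 0.39. The embryonic chromatin proteins HMGA1 (11.88 ± 0.44) and HMGA2 (12.04 ± 0.16), EPCAM (11.60 ± 0.19) and the telomerase subunit TERT (9.30 ± 0.25) were all detected and in the bright tier.

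The RNA-binding proteins of this group were unequal in detection. IGF2BP1, a fetal stabilizer of mRNA, read 13.08, 13.41, 13.70 and 13.42, and IGF2BP3 and IGF2BP2 stood at 12.37 ± 0.20 and 10.13 ± 0.15. LIN28B, which blocks the maturation of let-7 microRNAs, read 12.81, 12.69, 12.56 and 12.63. Its relative LIN28A was on no array, at 5.90, 6.10, 5.96 and 6.00. H19, the imprinted RNA that neighbours IGF2 on chromosome 11, read 7.06, 6.76, 6.92 and 6.67, percentile 44.95. The fetal liver factor SALL4 (8.59 ± 0.32), DLK1 (8.58 ± 0.25) and AKR1B10 (8.49 ± 0.30) were detected below the bright tier, and the hexokinase HKDC1 (6.25 ± 0.16) was detected on some arrays only. Hexokinase HK2, by contrast, was in the bright tier at 11.59 ± 0.23.

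**Figure D3:**
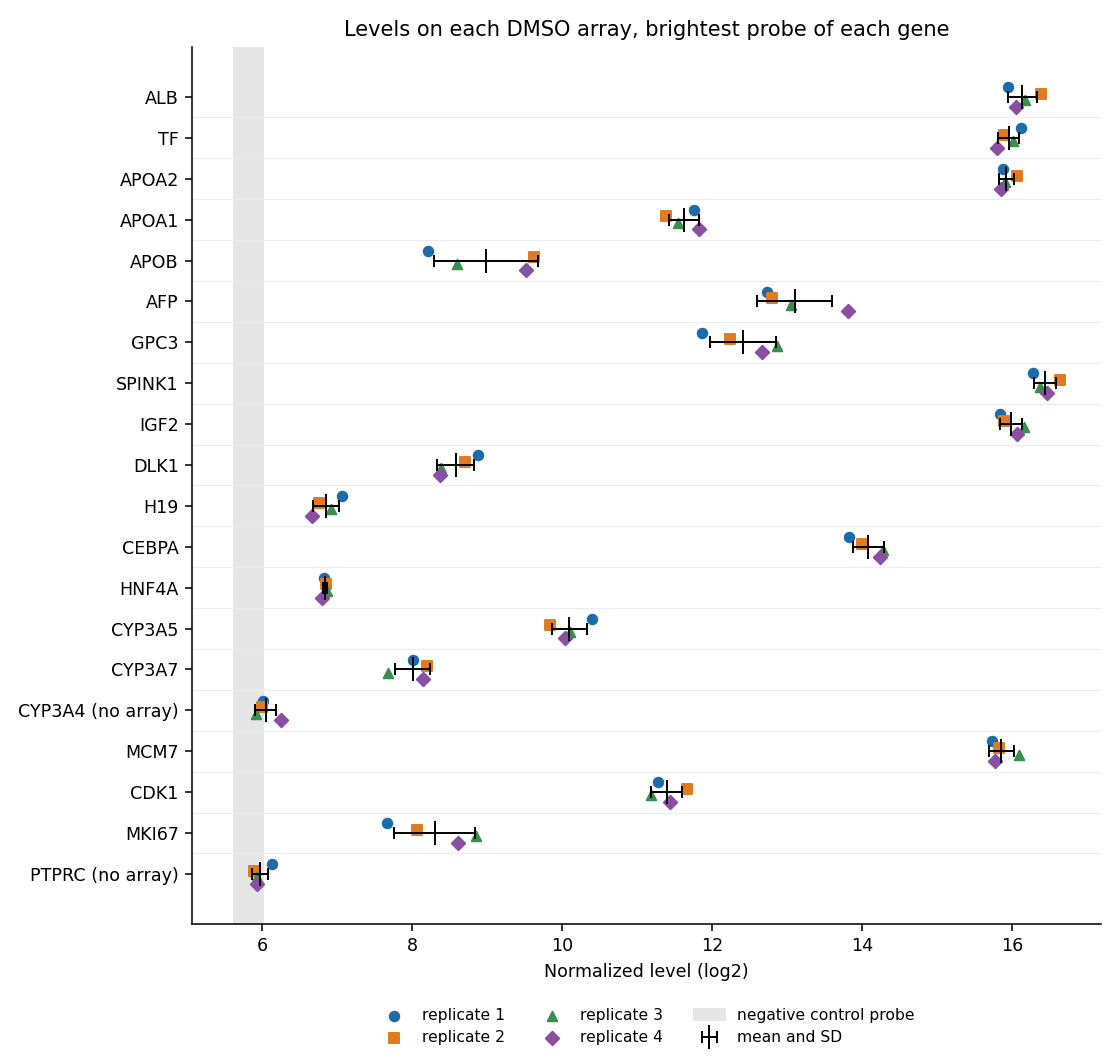
Normalized level (log2, x axis) of selected genes on each DMSO array (symbols by replicate) with mean and SD, and the range of the negative control probe in grey. ALB, SPINK1 and IGF2 lie near 16 on every array, CYP3A4 and PTPRC overlap or adjoin the grey band, and APOB and MKI67 have the largest SDs of the genes shown.

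Proliferation genes were detected in 48 of 50 cases (96%, against 76.4% of all genes), with none on no array (against 13.1%). In the bright tier were 42 (84.0%, against 37.5%), and the median percentile was 91.0. The replicative helicase subunit MCM7 read 15.74, 15.82, 16.10 and 15.77, and thymidine kinase TK1 read 15.16, 14.98, 14.89 and 14.78. The mitotic survival factor BIRC5 read 13.85, 13.83, 13.83 and 13.81, the smallest SD of the list. MCM3 (13.64 ± 0.09) and the ubiquitin ligase subunit UBE2C (13.22 ± 0.33) completed the 5 highest. The commonly used marker MKI67 stood lower, at 7.66, 8.06, 8.86 and 8.62, percentile 68.6, measured by 1 probe. Cyclin E1 (CCNE1) was at 12.01 ± 0.09, while cyclin E2 (CCNE2, 6.41 ± 0.04) was detected on some arrays only. The other member counted as between, the ribonucleotide reductase subunit RRM1, was called so because its only spot on replicate 3 carried an outlier flag. Its level there was 10.31, against 12.16, 11.87 and 11.54 on the other arrays.

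Many proliferation genes shared an order among the 4 arrays. Of the 48 detected members, 31 (64.6%) were lowest on replicate 1, where 21.7% of all detected genes were lowest, and 25 (52.1%) were highest on replicate 3, where 26.4% of all detected genes were highest. The median deviation of the members from their own means was -0.18, 0.01, 0.13 and 0.05 log2, against 0.05, -0.01, 0.01 and -0.04 over all detected genes. The mitotic kinase AURKB read 8.46, 8.98, 9.96 and 9.71, AURKA 11.09, 11.37, 11.89 and 11.88, and the topoisomerase TOP2A 10.59, 10.93, 11.73 and 11.08. These 3 genes were singled out after their values were seen. Oncofetal genes leaned the same way, with 13 of 23 lowest on replicate 1 and a median deviation there of -0.15. Of the 24 detected liver transcription factors, 15 (62.5%) were highest on replicate 3. Of the 12 detected endothelial markers, 9 were highest on replicate 1, where 41.0% of all detected genes were highest. Replicate 1 also had the highest negative control value, 6.01, and whether the slide, the culture or the array accounts for these shifts was not tested.

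All 12 inhibitors of the cell cycle were detected, against 76.4% of all genes, and 8 were in the bright tier (66.7%, against 37.5%). CDKN2A, which encodes p16 and ARF, read 12.67, 12.58, 12.60 and 12.53, percentile 96.1. The imprinted inhibitor CDKN1C reached 11.19 ± 0.50, highest on replicate 1 at 11.85. The retinoblastoma gene RB1 was detected with both of its probes, the brighter at 10.92 ± 0.24, and CDKN3 (11.24 ± 0.14) and CDKN2D (11.22 ± 0.26) lay in the bright tier as well. CDKN1A, the p53 target p21, was dimmer at 7.82, 7.58, 7.62 and 7.70, percentile 60.5. Of the RB relatives, RBL2 read 8.02 ± 0.13 and RBL1 had one probe on all 4 arrays and another on none.

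Growth factors, receptors and liver cancer drivers were detected in 28 of 31 cases (90.3%, against 76.4% of all genes), with 12 in the bright tier (38.7%), close to the 37.5% of all genes. The receptor FGFR3 was the highest, at 13.86, 13.79, 14.24 and 13.97. The transcription factor MYCN (12.28 ± 0.18), beta-catenin (CTNNB1, 12.21 ± 0.20), the hepatocyte growth factor receptor MET (11.93 ± 0.12) and KLB (11.68 ± 0.10), the coreceptor of FGF19, followed. FGF19 itself was detected at 9.82 ± 0.35 and its main liver receptor FGFR4 at 8.43 ± 0.29, both singled out after their values were seen. The receptor KIT was on no array, at 5.76, 6.37, 6.16 and 5.86. MYC, ERBB2 and HGF each had one probe on all 4 arrays and another on none. IGF1, the adult counterpart of IGF2, was dim with all 4 of its probes, the brightest at 6.52, 6.35, 6.33 and 6.67, and was detected on some arrays only.

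The genes of the p53 and stress list were all detected, 23 of 23, against 76.4% of all genes, with 15 in the bright tier (65.2%, against 37.5%). The list holds genes that the study followed, but also B2M, a reference gene of its qPCR, and HSPA8, which the paper does not name. Of the targets of p53, MDM2 stood at 8.88 ± 0.18, BAX at 11.97 ± 0.41, TNFRSF10B at 12.07 ± 0.07 and GADD45A at 10.60 ± 0.35. The stress factor ATF4 read 15.62, 15.79, 15.82 and 15.72, and XBP1, of the unfolded protein response, stood at 14.79 ± 0.18. The chaperone HSPA8 reached 14.56 ± 0.19 and HSPA1A, an inducible Hsp70, 12.43 ± 0.35, while DDIT3, NUPR1 and SESN2 were at 8.02 ± 0.17, 7.11 ± 0.17 and 7.78 ± 0.09. TRIB3 and ASNS, targets of ATF4, stood at 13.24 ± 0.08 and 12.11 ± 0.27.

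HuH-7 is widely used to grow hepatitis C virus, and entry factors and RNA sensors were followed for that reason. Of 22 genes, 18 were detected (81.8%) and 9 were in the bright tier (40.9%), close to the 76.4% and 37.5% of all genes. The entry factors SCARB1 (14.63, 14.79, 14.86 and 14.95), CD81 (12.94, 12.37, 12.80 and 12.85) and CLDN1 (10.52 ± 0.16) were all detected in the bright tier. The other SCARB1 probes had means of 9.19 and 7.53. The entry factors OCLN (8.33 ± 0.15, with 1 of 3 probes on no array) and EPHA2 (7.47 ± 0.44) were detected below the bright tier. SLC10A1, the receptor of hepatitis B virus, read 7.27, 6.57, 6.81 and 6.76, percentile 44.98. The sensors RIGI and IFIH1 stood at 7.57 ± 0.06 and 6.91 ± 0.13, TLR7 was on no array at 6.20 ± 0.15, and 1 of the 3 TLR3 probes was detected on all 4 arrays (6.50 ± 0.17). MAVS, the adaptor of RIGI and IFIH1, was at 11.06 ± 0.42. The interferon receptor chains IFNAR1 (6.46 ± 0.28) and IFNAR2 (6.59 ± 0.24) were detected on some arrays only. Both counted as detected when replicate 1 was left out.

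Markers of other cell types were dim as groups. The RNA was that of whole cultures of this line, so a transcript in few cells and little in every cell cannot be told apart. The lists of these markers had median percentiles of 40.9 for leukocytes, 48.2 for stellate cells and fibroblasts, 42.9 for endothelium, 33.9 for erythroid and 29.7 for neuronal cells, all under the 63.9 of all genes. Detected were 12 of 16, 11 of 15, 12 of 14, 7 of 13 and 5 of 12 members, against 76.4% of all genes. The endothelial share (85.7%) lay above that of all genes and the leukocyte share (75%) close to it. In the bright tier were 3, 2, 1, 0 and 2, at most 18.8% of a list, against 37.5% of all genes. Defining markers were on no array: PTPRC, the common leukocyte antigen (6.13, 5.89, 5.93 and 5.93), ACTA2, DES and POSTN of stellate cells and fibroblasts, TEK and LYVE1 of endothelium, HBG1 and RHAG of red cells, and SYP, SNAP25 and MAP2 of neurons. The members in the bright tier were CD79A (10.04 ± 0.10), LYZ (9.21 ± 0.37) and CD3D (9.11 ± 0.29), COL1A2 (9.74 ± 0.19) and THY1 (9.61 ± 0.14), EGFL7 (10.14 ± 0.23), and TUBB3 (13.99 ± 0.16) and NEFM (8.91 ± 0.17).

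Of the 14 biliary and progenitor markers, 13 were detected (92.9%, against 76.4% of all genes) and 6 were in the bright tier (42.9%, against 37.5%). Their median percentile of 67.3 was near the 63.9 of all genes. The simple epithelial keratin KRT19, a marker of bile ducts and progenitors, read 16.10, 15.79, 15.93 and 15.75, percentile 99.8. KRT7, the other keratin of bile ducts in the list, was on no array, at 6.06, 5.83, 6.09 and 6.10. CD24 and EPCAM, given above, SOX9 (9.11 ± 0.16), PROM1 (9.49 ± 0.33) and SLC4A2 (9.47 ± 0.42) were the other members in the bright tier. The ductal genes MUC1 (7.03 ± 0.18), CFTR (6.83 ± 0.05) and SPP1 (7.85 ± 0.26) were detected below it.

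The brightest probes of all belonged to protein synthesis. Among the 100 genes with the highest means, 42 were cytosolic ribosomal proteins, of which 85 were measured, and 77 of these were among the 1000 highest. RPS27 (17.28 ± 0.02), RPL13 (17.21 ± 0.05) and RPL35 (17.15 ± 0.05) led, followed by the elongation factor EEF1A1 (17.08 ± 0.08) and the glutathione transferase GSTP1, which read 17.03, 17.10, 17.05 and 17.09. The 20 highest also held RPS28, RPS16, RPL41, RPS21, RPLP0, RPL7A, RPS15, RPS2 and RPL15, the calcium-binding protein S100P (16.58 ± 0.07), the ferritin heavy chain FTH1 (16.50 ± 0.32), the DNA repair protein XRCC6 (16.52 ± 0.08), CHCHD2 (16.55 ± 0.08) and MTRNR2L6 (16.58 ± 0.37), a nuclear copy of a mitochondrial sequence whose probe may read the mitochondrial RNA itself. Ribosomal proteins have many processed copies in the genome, so their probes may also read more than 1 gene. Of the liver lists, ALB, TF and APOA2, and of the other lists described, SPINK1, IGF2, MCM7, KRT19 and ATF4 were among the 100. All 16 housekeeping genes were detected, against 76.4% of all genes, with levels from 8.54 ± 0.31 for TBP to EEF1A1 as above.

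The choice of probe set the level of several genes described. The IGF2 probe at chr11:2150394-2150453 read 15.99 ± 0.15, and the probe at chr11:2154402-2154754, upstream on the - strand and across an intron, read 9.08 ± 0.28, a gap of 6.90. LIN28B read 12.67 ± 0.11 with the probe at chr6:105527927-105527986 and 8.53 ± 0.52 with the upstream probe. CEBPA read 14.08 ± 0.21 and 13.76 ± 0.24 with downstream probes and 8.06 ± 0.22 with the probe farthest upstream. The FGFR3 probes read 13.96 ± 0.19 and, upstream, 8.18 ± 0.62. MYC read 11.40 ± 0.11 and 8.64 ± 0.33, and the remaining probe was on no array at 6.10 ± 0.08. Over 7657 genes with probes on one strand more than 200 bases apart, the probe farthest downstream was the brighter in 60.1%, and the median of downstream minus upstream over all of them was 0.33 log2. Of the 8174 genes with several probes, 1440 (17.6%) had one on all 4 arrays and another on none.

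**Figure D4:**
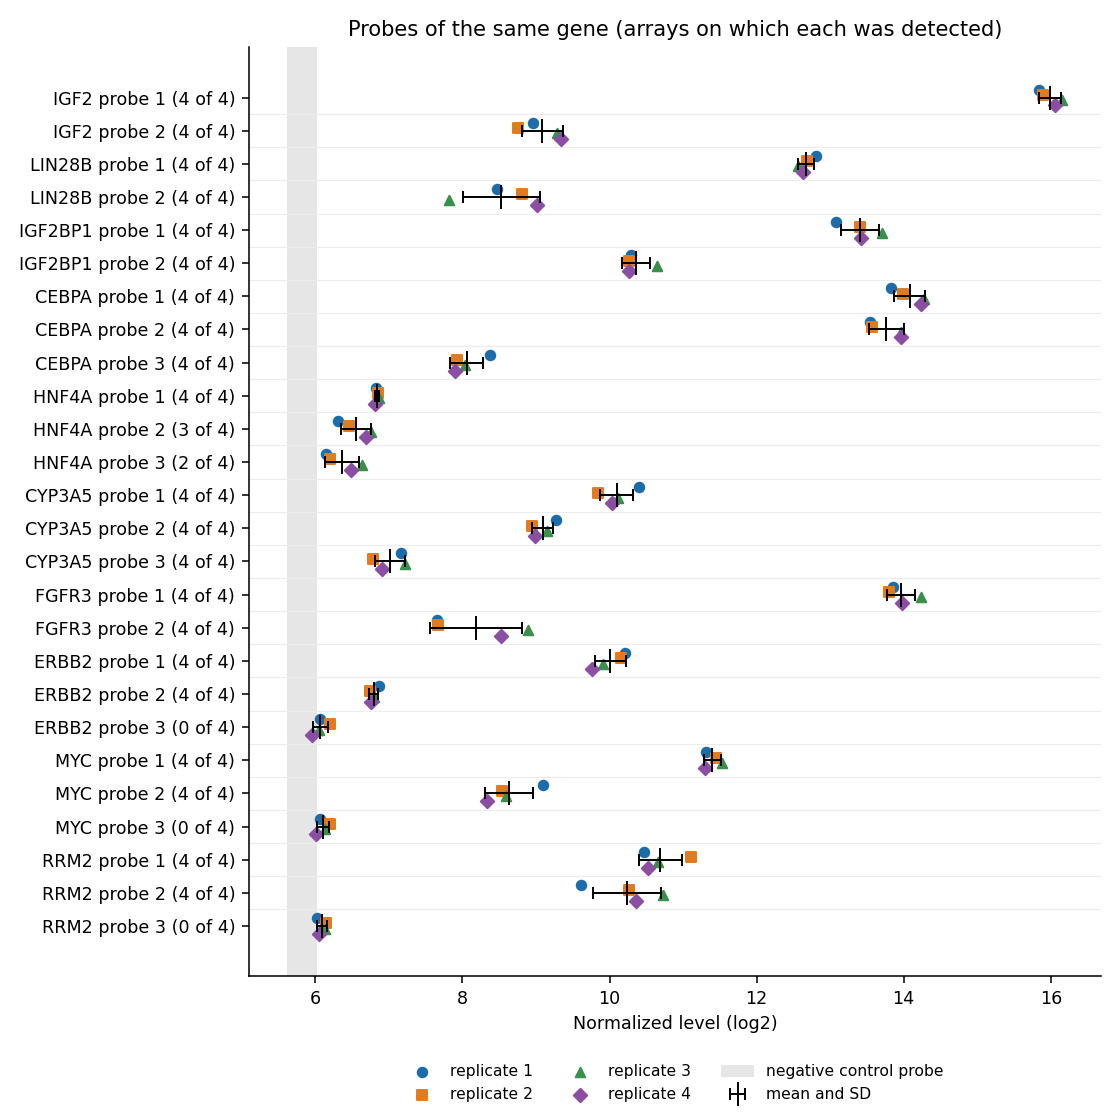
Normalized level (log2, x axis) on each DMSO array of every probe of 10 genes (rows, with the number of arrays on which the probe was detected), with mean and SD and the range of the negative control probe in grey. Probes of the same gene lie up to 6.90 log2 apart (IGF2), far more than the arrays of one probe. MYC and ERBB2 have probes in or next to the grey band beside bright ones. The dim RRM2 probe, at chr2:10350563-10350622, was designed to a different transcript from the bright ones at chr2:10269374-10269433 and chr2:10270487-10270546. It may therefore not read the same RNA.

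The 4 arrays differed little for most genes, with a median SD of 0.174 among detected genes, and 365 (2.46%) had an SD over 0.5. The 10 with the largest SD were no members of the lists. The respiratory chain subunit NDUFB10 read 13.35, 7.96, 13.15 and 13.30, so that replicate 2 alone was low. The melanoma antigen family member MAGEF1 read 11.14, 10.68, 7.78 and 10.38, and CPSF6, of mRNA 3' end processing, read 10.92, 10.17, 7.63 and 10.02, both low on replicate 3 only. Liver glycogen phosphorylase (PYGL) read 9.31, 10.41, 10.34 and 7.19 and STX16 read 10.14, 9.93, 10.42 and 7.55, both lowest on replicate 4. UPF1, of nonsense-mediated decay, read 9.03, 11.12, 9.21 and 11.46, and in 4 of the 10 genes (UPF1, NACA2, TMEM109 and the pseudogene RPL13AP3) replicates 2 and 4 both lay above replicates 1 and 3. APOB, given above, had the same order. SAR1B, of vesicle transport, was the remaining one of the 10, lowest on replicate 3.

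**Figure D5:**
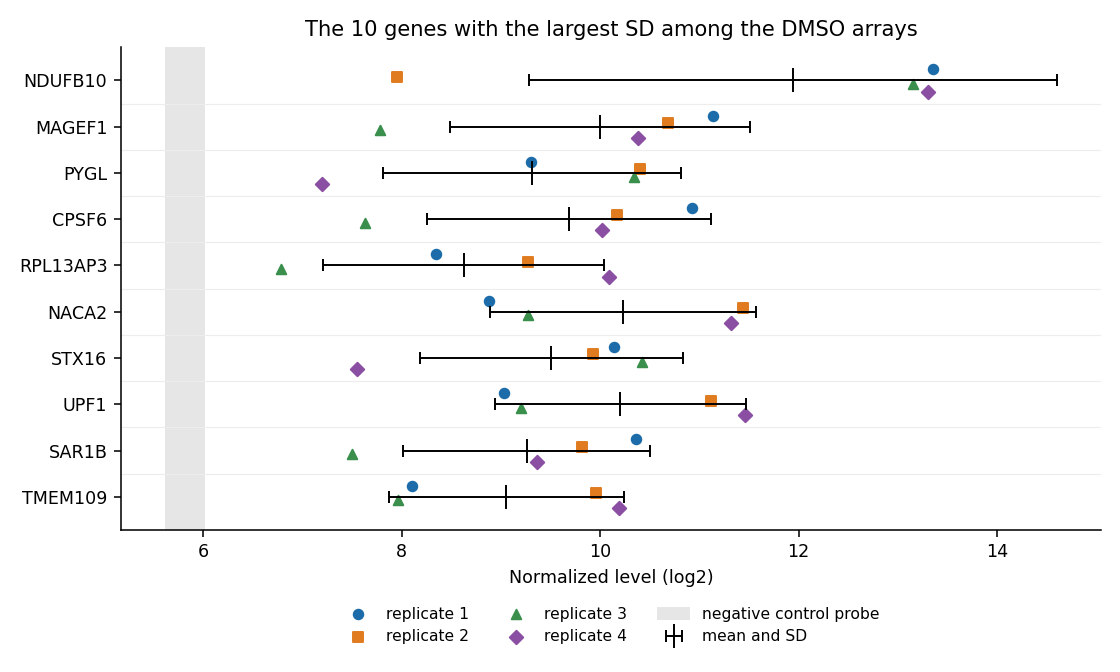
Normalized level (log2, x axis) on each DMSO array of the 10 detected genes with the largest SD (rows), with mean and SD. For NDUFB10 replicate 2 stands at 7.96 against 13.15 to 13.35 on the others, and for UPF1, NACA2, TMEM109 and RPL13AP3 replicates 2 and 4 lie above replicates 1 and 3.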

How the data were processed

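RNA of HuH-7 cells was measured on 12 arrays of 1 colour, of which the 4 of the DMSO group, taken from the sample titles, are described. The authors deposited the scanner output of Agilent Feature Extraction (version 10.7.3.1 per the labels), with spot intensity, background and detection flags for each array. The levels come from the second deposited source, log2 values that the authors background-corrected by the Edwards method and quantile normalized over all arrays. These values include spots with an outlier flag. Arrays have no read depth, and their number limits the precision.

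The log2 values of the 41000 gene probes were averaged over the 4 arrays, with the SD, and ranked. A probe counted as detected on an array when over 50% of its spots without an outlier flag were well above background, and 22 probes lacked such a spot on an array. Accessions, then symbols, were matched to RefSeq (GRCh38.p14), which named 31006 probes, and the other 9994 were used in ranks only. No groups were contrasted, and the only criterion applied was Dixon's, for 1 array far from the other 3. The arrays are separate biological replicates per the labels. The 17 gene lists, the members and the alternatives were chosen with earlier results of these data known. Named were the 4 markers, the 20 highest genes, in each list the 5 highest, up to 12 on no array and up to 3 with disagreeing probes (all members of a list of under 26), and the 10 largest SDs. Genes singled out beyond this, among them the urea cycle genes, further apolipoproteins and cyclins, were chosen after their values were seen. XIST and genes of the Y chromosome were left out. Alternatives used Edwards or normexp correction from the scanner intensities with limma 3.58.1 in R 4.3.3 and the package data.table (version 1.17.8). Ranks, counts and plots were made in Python 3.11.15 with pandas 2.3.3, numpy 2.4.6 and, for plots, matplotlib 3.10.9. The ranking and detection steps were tested on simulated data. The treated arrays entered the normalization over 12 arrays and a count of detected genes. Some genes counted in the lists are not reported by name here.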

Additional observations from a re-analysis of the deposited data

Results flagged for a closer look

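Among 233 named genes detected on all 4 arrays, 13 (5.58%) had 1 array far from the other 3 by Dixon's criterion, and chance marks about 1 in 20. Replicate 1 was the far array in 5, replicate 2 in 2, replicate 3 in 3 and replicate 4 in 3. On replicate 1, ALDH1A1 (12.18, the others from 12.89) and the RB relative RBL1 (7.002, the others 7.42 to 7.48) were low, and the RNA helicase DHX58 (7.63, the others 7.32 to 7.36) and the ribosomal proteins RPL35 (17.22, the others 17.11 to 17.13) and RPS15 (16.97, the others 16.70 to 16.73) were high. On replicate 2, NDUFB10 was low (7.96, the others 13.15 to 13.35) and the integrin ITGAM high (6.86, the others 6.60 to 6.64). On replicate 3, the T cell receptor subunit CD3D (8.68, the others 9.24 to 9.28) and PDGFRB (6.48, the others 6.75 to 6.79) were low and the transferrin receptor TFRC (13.63, the others 13.28 to 13.34) high. On replicate 4, RPL41 (16.62, the others 16.91 to 16.97) and TLR3 (6.25, the others 6.56 to 6.62) were low and the matrix protein LUM (8.14, the others 7.68 to 7.72) high. Apart from NDUFB10, each far value was within 1 log2 of the nearest other array.

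Of the 2533 genes found on no DMSO array, some were detected on the treated arrays. Of these, 3 genes were on all 4 arrays of 28 µM SLMP53-2, 11 on all 4 arrays of the higher dose and 3 on all 8, namely ALDH1L2, ANKRD62 and FAM27E3. These genes were picked by their detection, and no difference between the groups was tested. The lowest treated values of ALDH1L2, ANKRD62 and FAM27E3 were all on replicate 4 of 28 µM. They were 6.49, 6.09 and 6.20, against highest DMSO values of 6.34, 6.24 and 6.16. ANKRD62 was thus called detected at a level below that of a DMSO array where it was not. A larger share of gene spots was well above background on that treated array than on any DMSO array. Whether the array or the treatment accounts for these calls was not tested.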

How the results depend on the processing

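The counts of genes detected and on no array stayed within 1.5 times under every alternative but 1, and ran from 14827 to 15236 and from 2558 to 2841 without 1 replicate. The exception, the laxer flag for a positive and significant signal, left 387 genes on no array and called 11 erythroid and 9 neuronal markers detected. List medians moved by less than 1 SD over the arrays when a replicate was left out. Averaging all probes of a gene lowered the median percentile of 14 of 17 lists by more than that: to 94.1 for carriers, 71.3 for coagulation and complement, 75.7 for liver transcription factors, 42.1 for mature hepatocyte genes, 83.8 for oncofetal genes, 83.2 for cell cycle inhibitors, 51.0 for growth factors, 83.0 for p53 and stress genes, 58.0 for viral entry, 92.3 for housekeeping, 38.2 for stellate, 33.3 for endothelial, 64.8 for biliary and 19.3 for neuronal markers. The median over all genes was not calculated with this averaging, so these values cannot be set against the 63.9 above. Averaging kept 54 of the 100 brightest genes, where every other alternative kept at least 89. Scaling to the 75th percentile gave 73.6 for coagulation, 83.8 for transcription factors and 70.9 for biliary markers, and the Edwards and normexp recalculations gave 69.4 for biliary markers. No paired analysis was possible because only 1 group was described. Probes near background give bounds, and 4 arrays limit the precision of every SD.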
